A study of Homo sapiens with 12 samples.

Results

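The G1 cyclins, their kinases and the CDK inhibitors were followed as 10 genes of the 57187 in the count table, each found by its gene name. They were 3 cyclins (*CCND1*, *CCND3* and *CCNE1*), 2 kinases (*CDK4* and *CDK6*), 2 inhibitors of the Cip/Kip family (*CDKN1A* and *CDKN1B*) and 3 of the INK4 family (*CDKN2A*, *CDKN2B* and *CDKN2C*). All 10 passed the filter on low counts, *CDKN2A* and *CDKN2B* through HCC1954 and OVCAR8 alone, since they had 0 counts in the other lines. In the G1 phase, D-type cyclins bind CDK4 or CDK6, and the active kinases phosphorylate the retinoblastoma protein, which then releases E2F factors that switch on the genes of DNA replication. Cyclin E with CDK2 carries this step further. INK4 proteins bind CDK4 and CDK6 and keep D cyclins away from them, whereas Cip/Kip proteins bind whole cyclin-CDK complexes. Several of these genes are gained, lost or silenced in breast and ovarian cancers.

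The 4 human lines sequenced were 2 of breast cancer, MDA-MB-231 and HCC1954, and 2 of ovarian cancer, OVCAR8 and SKOV3, which the sample labels spell OVAR-8 and SKOV-3. Each line gave 1 control library, 1 library of cells transfected with wild-type *SIVA* (SIVA-WT) and 1 of cells transfected with the mutant *SIVA-D160N*, 12 libraries in all. The study asked how a *SIVA* mutation found in breast cancer alters cancer cells. *SIVA* encodes a pro-apoptotic protein, and D160N replaces an aspartic acid with an asparagine near its C-terminus. All cells grew in RPMI-1640 with fetal bovine serum. The transfected cells carried a linearized vector with a CMV promoter and an IRES-GFP and were selected with hygromycin as polyclonal pools. The labels call the controls parental and untreated, and the study's supplement calls them both parental and empty vector, so whether they passed through transfection and selection cannot be told apart from the labels. MDA-MB-231 carried luciferase in the study's assays, which the labels of the RNA libraries do not mention.

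Each library held between 35791455 and 45890398 counts. CPM, the unit used below, is the count scaled to a common library size after TMM normalization. *SIVA1* was higher in both transfectants than in the control of every line, but the HCC1954 library labelled control held 0 *SIVA1* counts, against 930 in *SIVA-D160N* and 1646 in SIVA-WT. The controls of the other lines held 1272 to 2419 *SIVA1* counts. They do not set the level of HCC1954 cells, and the reason for the value of 0 was not tested. Blots in the study's supplement also list HCC1954 and OVCAR8 cells with a *SIVA* knockout. For MDA-MB-231 the study uses that word for a stable shRNA knockdown, and it does not describe how the HCC1954 cells were made. Whether this library is from those HCC1954 cells cannot be told from the labels. Every HCC1954 ratio to control below is a ratio to this library, and the leading results are also given without it or without that line. The lineage markers went with the labels in part. *PAX8* reached 68.3 CPM in OVCAR8 and 239 CPM in SKOV3 against at most 2.95 CPM in the breast lines (means of 3 libraries). *WT1* was at 6.41 CPM in OVCAR8 but at 0.726 CPM in SKOV3, and it was at 6.65 CPM in HCC1954. Of the breast markers, *GATA3* reached 46.6 CPM in HCC1954 and only 2.19 CPM in MDA-MB-231, and *TFAP2C* 126 and 6.15 CPM. *TRPS1* was highest in SKOV3, an ovarian line, at 40.2 CPM, against 35.4 CPM in HCC1954 and 14.1 CPM in MDA-MB-231. *MUC16* was highest in HCC1954, a breast line, at 85.6 CPM. Of the epithelial markers, *EPCAM* was low in SKOV3 (0.515 CPM) and MDA-MB-231 (2.15 CPM), against 19.5 CPM for OVCAR8 and 229 CPM for HCC1954. The keratin genes *KRT8* and *KRT18* were read in every line. Their means were 633 and 211 CPM for SKOV3, and 286 and 275 CPM for MDA-MB-231. *ERBB2* reached 8998 CPM in SKOV3 and 7552 CPM in HCC1954, against at most 74.1 CPM elsewhere. *VIM* was lowest in HCC1954, at 182 CPM against at least 3112 CPM elsewhere. Of 3 markers of other cell types, *PTPRC* (leukocytes) and *ALB* (hepatocytes) stayed below 1 CPM in every line, and *PECAM1* (endothelium) reached 51.8 CPM in HCC1954 against at most 1.02 CPM elsewhere. Its part in the results was not tested.

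The letters before the transcription start are shown for the 2 genes with the smallest p in *SIVA-D160N* vs control, *CDKN1A* and *CDK6*, and for *CDKN2A*, which has 2 start sites that give unrelated proteins. Each run is the 100 bases upstream of a RefSeq start (GRCh38.p14), 5′ to 3′ on the gene's strand, and capitals mark GGGCGG on either strand, the core of a GC box to which SP1-like factors can bind.
*CDKN1A*, chr6:36678614-36678713, plus strand: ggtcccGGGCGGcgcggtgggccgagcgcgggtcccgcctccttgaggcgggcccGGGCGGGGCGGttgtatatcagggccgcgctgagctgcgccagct
*CDK6*, chr7:92836574-92836673, minus strand: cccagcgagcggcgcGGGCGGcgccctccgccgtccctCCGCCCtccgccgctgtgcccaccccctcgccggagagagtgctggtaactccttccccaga
*CDKN2A* upstream start (ARF), chr9:21995325-21995424, minus strand: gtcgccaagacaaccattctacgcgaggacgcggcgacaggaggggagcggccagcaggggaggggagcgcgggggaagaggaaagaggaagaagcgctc
*CDKN2A* downstream start (INK4A), chr9:21974858-21974957, minus strand: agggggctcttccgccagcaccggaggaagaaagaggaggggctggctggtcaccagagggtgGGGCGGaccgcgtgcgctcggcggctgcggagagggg
The *CDKN1A* run held 3 matches, of which the last pair overlapped, the *CDK6* run held 2, the ARF run held 0 and the INK4A run held 1. A second *CDK6* start in the table held 0. Over the 9 genes with an entry, 11 of 15 start sites held the motif, and it was found in 31.3% of the 35116 start sites of all genes. The count table gives 1 value for *CDKN2A*, so transcripts of its 2 starts cannot be told apart.

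The levels of the members differed between lines, as did those of nearly all genes. The 8 members read in every line differed among the 4 lines at an adjusted p under 0.05, from 3.5e-07 for *CCND1* to 0.00067 for *CDK6* (quasi-likelihood F test of edgeR, adjusted by Benjamini-Hochberg over all genes tested, 3 libraries per line). *CDKN2A* and *CDKN2B* passed too, but having passed the filter only through the lines where they are high, they had to differ. The same test was passed by 93.9% of all 17211 genes tested, so these calls say little about the members in particular. *CDK6* spanned 1.74-fold between line means, less than its ratio of 1.85 between *SIVA-D160N* and control within HCC1954. Between pairs of lines, counting *CDKN2A* and *CDKN2B*, 9 members differed for HCC1954 vs MDA-MB-231 (70.8% of all genes), 10 for OVCAR8 vs MDA-MB-231 (64.1%), 4 for SKOV3 vs MDA-MB-231 (68.5%), 10 for OVCAR8 vs HCC1954 (70.5%), 7 for SKOV3 vs HCC1954 (68.9%) and 9 for SKOV3 vs OVCAR8 (70.2%). The 3 libraries of a line are 3 transfection states of it, so these p-values measure the spread between them. Only *CDKN1A* separated the tissues, with no breast library in the range of the ovarian ones, which also held for 14.2% of all genes.

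**Figure D1:**
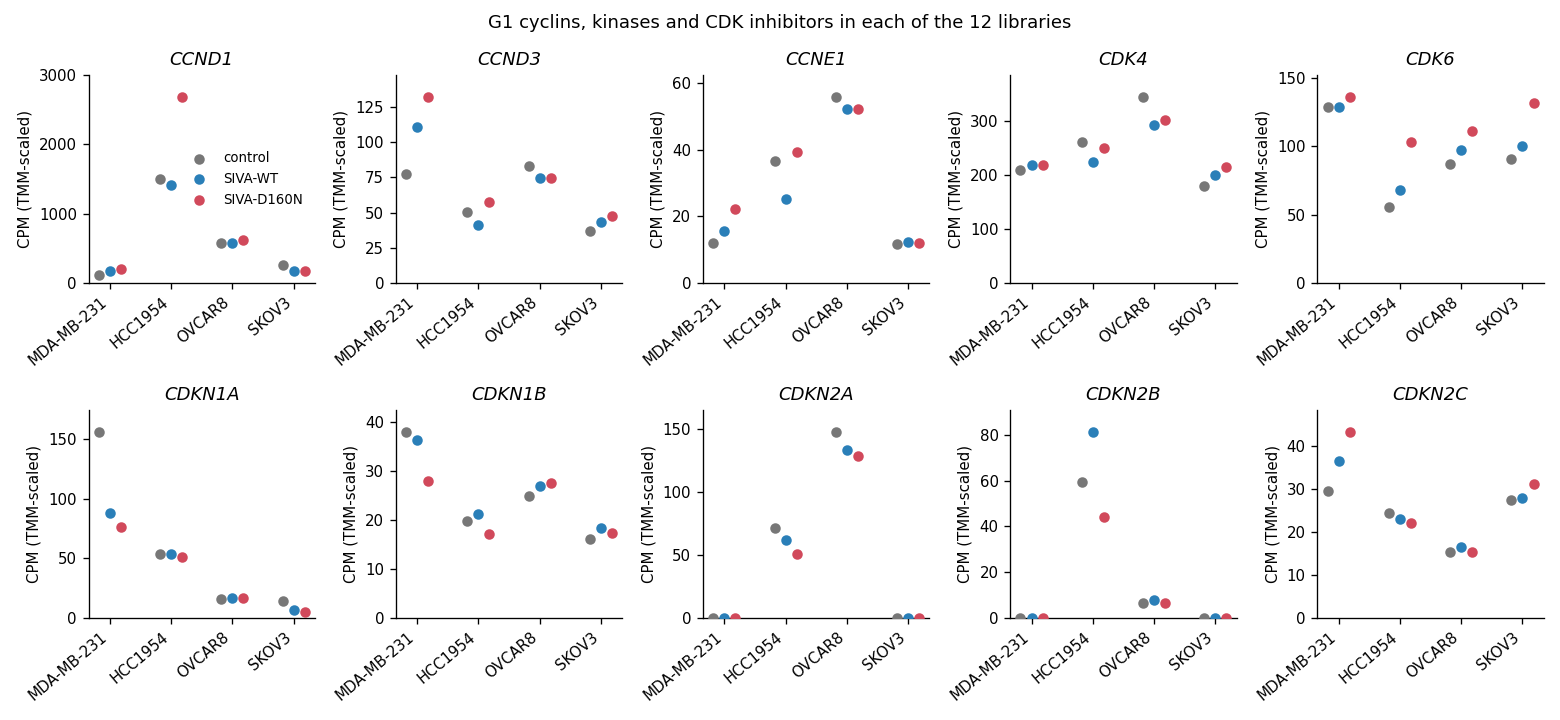
Each panel plots 1 gene, with the 4 cell lines on the x axis and the level in CPM scaled by TMM on a linear y axis that starts at 0, and each point is 1 library coloured by condition. *CDKN2A* and *CDKN2B* sit at 0 in MDA-MB-231 and SKOV3, and the *CDK6* point of *SIVA-D160N* is the highest of each line.

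*CCND1*, which encodes cyclin D1 (chr11:69641156-69654474), had its highest levels in HCC1954. Its HCC1954 levels were 1499 CPM in control, 1414 in SIVA-WT and 2681 in *SIVA-D160N*. In OVCAR8 they were 572, 572 and 627 CPM in the same order. In SKOV3 they were 266, 177 and 175 CPM, and in MDA-MB-231 119, 178 and 207 CPM. HCC1954 stood above the range of every other line, with a mean of 1864 CPM ± 709 (SD, n = 3), 10.9-fold over MDA-MB-231 in the fit (adjusted p = 5.7e-07 by edgeR). SKOV3 and MDA-MB-231 overlapped and did not differ by the test (adjusted p = 0.262). Most listed genes around *CCND1* were also high in HCC1954. There, 5 of the 6 neighbours had their highest mean and differed from each other line at an adjusted p under 0.05 by edgeR. *PPFIA1* was among them, at 251 CPM against 86.0 to 94.5 CPM elsewhere. The sixth was *TPCN2*, named after its values were seen. How many of all genes had this pattern was not counted, and 68.9% to 70.8% of them differed between HCC1954 and any 1 other line.

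*CCND3*, which encodes cyclin D3, went another way, with its highest mean in MDA-MB-231. There it was at 77.1 CPM in control, 111 in SIVA-WT and 132 in *SIVA-D160N*. OVCAR8 held 82.9, 74.3 and 74.8 CPM, HCC1954 50.6, 41.0 and 57.3 CPM, and SKOV3 37.3, 43.1 and 47.4 CPM. The order was MDA-MB-231, OVCAR8, HCC1954 and SKOV3, of which the last pair did not differ (adjusted p = 0.241). *CCND2*, the remaining D cyclin, was read at most 2 times in any library, so it was below the limit of 3 counts. Levels per kilobase used the union of annotated exons, 4761 bases for *CCND1* and 5761 for *CCND3*. This can exceed the length of the transcripts expressed, so the size of a share depends on it. On this scale, *CCND1* made up 97.3% to 98.3% of the summed D-cyclin level in HCC1954, 89.3% to 91.0% in OVCAR8 and 65.1% to 66.0% in MDA-MB-231. In SKOV3 its share was 89.6% in control, 83.3% in SIVA-WT and 81.7% in *SIVA-D160N*. Thus the transfected SKOV3 cells held a smaller *CCND1* share than their control, and the shares in the other lines differed little between conditions.

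*CCNE1*, which encodes cyclin E1 (chr19:29811991-29824312), was highest in OVCAR8. The OVCAR8 levels were 55.7 CPM in control, 52.0 in SIVA-WT and 52.1 in *SIVA-D160N*. HCC1954 held 36.7, 25.1 and 39.4 CPM, and MDA-MB-231 held 12.1, 15.7 and 22.1 CPM. SKOV3 was lowest and even, with 11.7, 12.4 and 12 CPM. OVCAR8 was 3.26-fold over MDA-MB-231 (adjusted p = 1.6e-05), and MDA-MB-231 did not differ from SKOV3 (adjusted p = 0.061). Of 5 listed neighbours of *CCNE1*, 3 were also highest in OVCAR8 and differed there from each other line. They included *URI1*, a prefoldin-like cofactor, at 236 CPM against 65.1 to 126 CPM in the other lines. The share of all genes with this pattern was not counted, and 64.1% to 70.5% differed between OVCAR8 and any 1 other line. *CCNE2*, the paralog of *CCNE1*, did not differ among lines (adjusted p = 0.319).

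*CDK4* was the most even member across lines. Its levels were 209.6, 219 and 219 CPM in MDA-MB-231 (control, SIVA-WT and *SIVA-D160N*), 260.2, 224 and 250.1 CPM in HCC1954, 344, 293 and 301 CPM in OVCAR8, and 179, 199.9 and 215 CPM in SKOV3. The highest line mean was 1.58-fold over the lowest, and neither HCC1954 nor SKOV3 differed from MDA-MB-231 (adjusted p = 0.142 and 0.313). *CDK6* levels had the order MDA-MB-231, SKOV3, OVCAR8 and HCC1954. The neighbours in the order above HCC1954 did not differ from each other (adjusted p = 0.0528 and 0.448). Of 5 listed genes around *CDK6* on its chromosome, only 2 had their highest mean in MDA-MB-231, and 1 differed there from each other line. Per kilobase of annotated exon, *CDK4* was at the higher level in every library, and *CDK6* gave 5.13% to 13.6% of the sum of both. The size of these shares, too, depends on the exon lengths used.

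**Figure D2:**
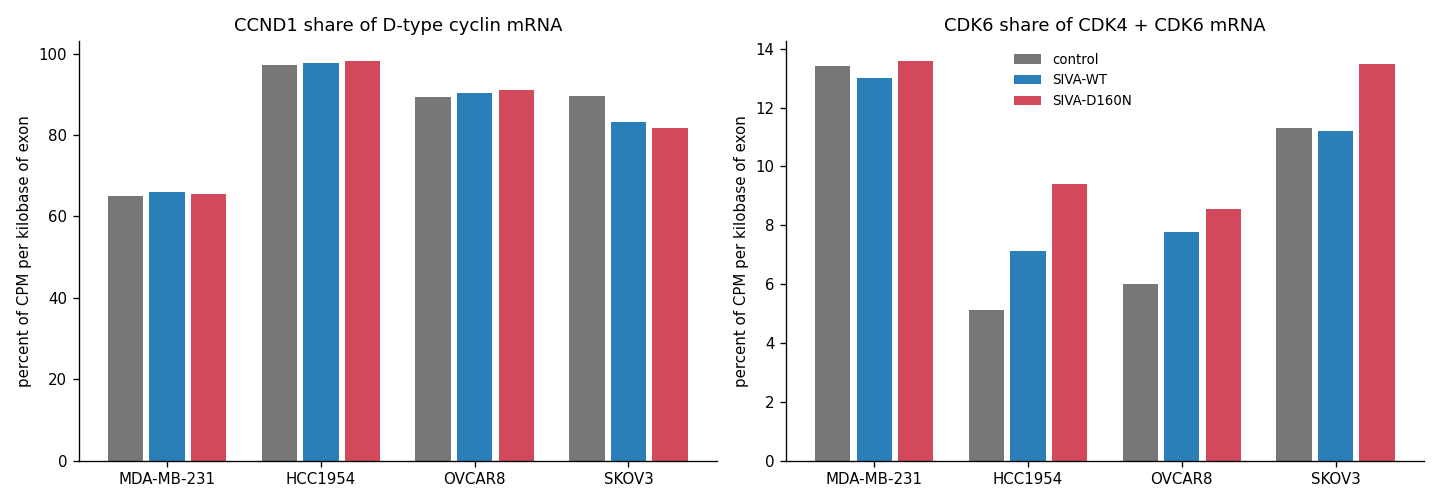
The left panel plots *CCND1* as a percent of the summed D-cyclin level (*CCND1*, *CCND2* and *CCND3*) and the right panel *CDK6* as a percent of *CDK4* plus *CDK6*, both in CPM per kilobase of exon on axes that start at 0, with 1 bar for each library, grouped by line and coloured by condition. The *CDK6* share of HCC1954 went from 5.13% in control to 9.42% in *SIVA-D160N*, and that of MDA-MB-231 stayed between 13% and 13.6%.

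*CDKN1A*, which encodes p21, an inhibitor of CDK2 complexes and a classical p53 target (chr6:36676463-36687332), decreased in the order MDA-MB-231, HCC1954, OVCAR8 and SKOV3. All 6 pairs of lines differed. In MDA-MB-231 it was at 156 CPM in control, 87.9 in SIVA-WT and 76.6 in *SIVA-D160N*. HCC1954 held 53.9, 53.8 and 51.2 CPM, and OVCAR8 held 16.2, 16.3 and 16.5 CPM. SKOV3 held 13.9, 6.79 and 4.56 CPM. The HCC1954 and OVCAR8 libraries hardly moved with condition, while in MDA-MB-231 and SKOV3 the control was well above both transfectants. *CDKN1B*, which encodes p27, ran from 16.1 CPM in the SKOV3 control to 38.0 CPM in the MDA-MB-231 control. Its line means were 34.1 CPM in MDA-MB-231, 26.5 in OVCAR8, 19.4 in HCC1954 and 17.3 in SKOV3, and the last pair did not differ (adjusted p = 0.273).

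Of the INK4 genes, *CDKN2A* and *CDKN2B* gave the sharpest contrast between lines, whereas *CDKN2C* spanned 2.31-fold between line means. Both passed the filter only through HCC1954 and OVCAR8, and the share of all genes with such a pattern was not counted. *CDKN2A* and *CDKN2B* lie side by side on chromosome 9 (chr9:21967752-21995324 and chr9:22002903-22009313, both on the minus strand). Neither had a single count in the 3 libraries of MDA-MB-231, of 125940014 counts in all, nor in the 3 of SKOV3, of 120362182. At a limit of 3 counts per library, this allows up to 0.0795 CPM, for counting error only. *CDKN2A* was at 148, 134 and 129 CPM in OVCAR8 (control, SIVA-WT and *SIVA-D160N*) and at 71.5, 61.7 and 50.6 CPM in HCC1954, so OVCAR8 was 2.25-fold over HCC1954 (adjusted p = 5.9e-05). *CDKN2B* had the opposite order, with 59.4, 81.3 and 43.9 CPM in HCC1954 and 6.63, 7.91 and 6.72 CPM in OVCAR8, where it was 0.118 of the HCC1954 level (adjusted p = 3.3e-06). Against the limit, *CDKN2A* was at least 637-fold higher and *CDKN2B* at least 83.5-fold higher in every library of these lines than in any library at 0.

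The genes beside this pair were not alike in the lines without *CDKN2A*. *MTAP*, a methionine salvage enzyme encoded next to *CDKN2A* (chr9:21802636-21941115), also had 0 counts in the MDA-MB-231 libraries, but it was at 58.2 to 73.1 CPM in SKOV3, 59.9 to 74.9 CPM in HCC1954 and 87.4 to 100.4 CPM in OVCAR8. *CDKN2B-AS1*, the antisense transcript that overlaps *CDKN2B*, had 0 counts in MDA-MB-231 and SKOV3 and between 35 and 83 counts in the other libraries. The library kit keeps the strand, but the sources used here do not state which strand was counted, so reads of *CDKN2B* and *CDKN2B-AS1* may be mixed. Of 5 listed neighbours, 4 had 0 counts in MDA-MB-231 (*MTAP*, *CDKN2B-AS1*, *DMRTA1* and *KLHL9*, the last pair named after their values were seen). Copy number was not measured, so lost and silent genes cannot be told apart.

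*RB1*, the target of the kinases that INK4 proteins inhibit, was low where *CDKN2A* was highest. In OVCAR8 it was at 8.33, 12 and 13.1 CPM (control, SIVA-WT and *SIVA-D160N*). In the lines without *CDKN2A* reads it was at 69.8 to 71.7 CPM in MDA-MB-231 and 107 to 129 CPM in SKOV3, and HCC1954 held 47.9 to 51.4 CPM. No OVCAR8 library reached the range of another line, and OVCAR8 lay 2.68 below MDA-MB-231 on the log2 scale (log2 fold change -2.68, standard error 0.15, adjusted p = 7.5e-08 by edgeR). The share of all genes with such a gap was not counted, and 64.1% to 70.5% of them differed between OVCAR8 and any other line. Whether *RB1* and *CDKN2A* levels go together across lines was not tested. *CDKN2C*, which encodes p18, an INK4 protein of another chromosome, was read in every library. It was at 29.5, 36.6 and 43.3 CPM in MDA-MB-231, 24.4, 23.0 and 22.1 CPM in HCC1954, 15.3, 16.6 and 15.4 CPM in OVCAR8, and 27.4, 27.8 and 31.1 CPM in SKOV3. OVCAR8, with the most *CDKN2A*, thus had the least *CDKN2C*, 0.436 of the MDA-MB-231 level (adjusted p = 1.4e-05).

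**Figure D3:**
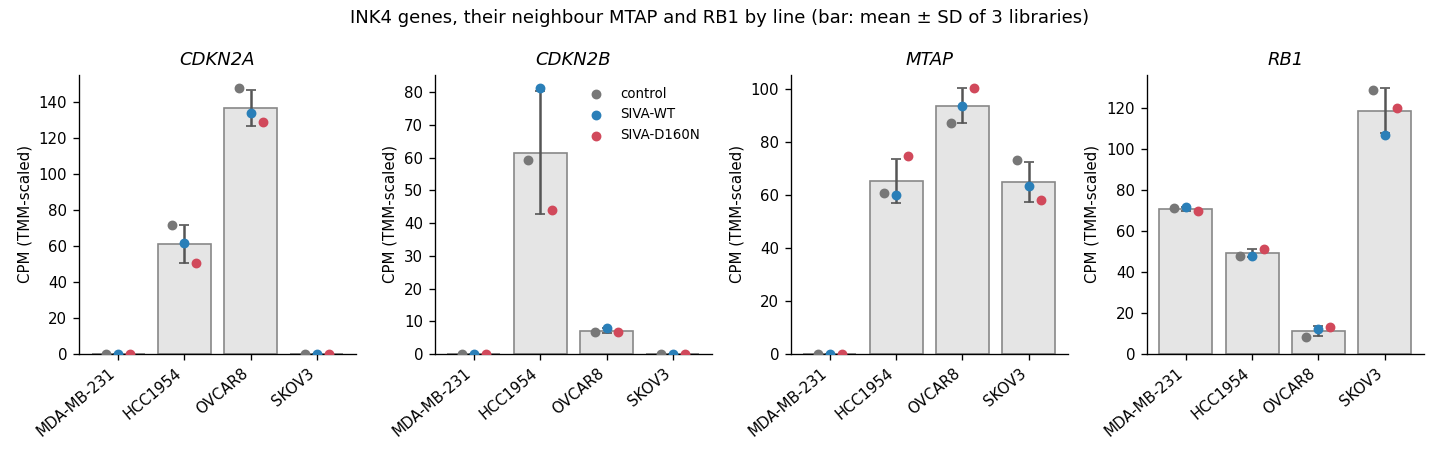
The 4 panels plot *CDKN2A*, *CDKN2B*, *MTAP* and *RB1* by cell line in CPM scaled by TMM on linear axes from 0, with a bar for the mean and an error bar for the SD of 3 libraries, and a point for each library coloured by condition. MDA-MB-231 is at 0 for *CDKN2A*, *CDKN2B* and *MTAP*, SKOV3 is at 0 for *CDKN2A* and *CDKN2B* only, and OVCAR8 has the tallest *CDKN2A* bar beside the shortest *RB1* bar.

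In *SIVA-D160N* vs control, no member passed the thresholds (an adjusted p, or FDR, under 0.05 by edgeR and a log2 fold change of 1.5 or more in either direction). The smallest p-values were those of *CDK6*, higher with the mutant, and *CDKN1A*, lower with it. DESeq2 and limma-voom also called 0 members, and 1 gene of all tested passed in the edgeR fit, which is 0.00581%. At an unadjusted p under 0.05, *CDK6*, *CDKN1A* and *CDKN2A* differed, 3 of 10, beside 14.2% of all genes. The median log2 fold change of the members was 0.08, and that of all genes was -0.01. *CDKN1A*, *CDK6*, *CCNE2* and *GDF15* are also in pathway tables of the study that list genes picked from these libraries, so their naming there is not independent evidence. The study reports the genes in those tables as differentially expressed between *SIVA-D160N* and parental lines, at an FDR and a log2 fold change threshold of the same size. None of these genes passed both thresholds here. The study does not name its model terms, and the reason for the difference was not tested. In bulk RNA, fewer cells with a transcript and less of it per cell cannot be told apart.

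*CDKN1A* had a log2 fold change of -0.67 (standard error 0.22, unadjusted p = 0.0122, FDR 0.238 by edgeR, n = 4 lines). *SIVA-D160N* was at 0.327 of the control in SKOV3 and at 0.492 in MDA-MB-231. The ratio was 0.95 in HCC1954 and 1.02 in OVCAR8, so it was lower in 3 of 4 lines, 1 of them by little. Without SKOV3 the log2 fold change was -0.38 (unadjusted p = 0.0791), and without the HCC1954 library labelled control it was -0.85 (FDR 0.273). With no filter on low counts, its FDR was 0.0116, at the same fold change.

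*CDK6*, which lies at chr7:92604921-92836573 and whose kinase pairs with D cyclins, was higher with *SIVA-D160N* in 4 of 4 lines. Its levels were 129 CPM in control and 136 in *SIVA-D160N* in MDA-MB-231, 55.6 and 103 CPM in HCC1954, 86.8 and 111 CPM in OVCAR8, and 90.7 and 132 CPM in SKOV3. SIVA-WT lay between them in HCC1954 at 68.2 CPM, in OVCAR8 at 97.6 CPM and in SKOV3 at 100 CPM, and was at 129 CPM in MDA-MB-231. HCC1954 had the largest ratio of *SIVA-D160N* to control, 1.85, followed by SKOV3 with 1.46, OVCAR8 with 1.28 and MDA-MB-231 with 1.06. The fit gave a log2 fold change of 0.47 (standard error 0.11, unadjusted p = 0.00171, FDR 0.154 by edgeR). Counting any ratio above 1, only *CDK6* of the members was higher in all 4 lines, as were 6.85% of all genes. Without the HCC1954 library labelled control the log2 fold change was 0.37 (FDR 0.337), without HCC1954 it was 0.33 (FDR 0.429), and DESeq2 gave an FDR of 0.0252 over all lines, with a log2 fold change of 0.46, below the threshold.

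*CDKN2A* was below its control in both lines where it was read, at 0.708 in HCC1954 and 0.875 in OVCAR8, with a log2 fold change of -0.34 (unadjusted p = 0.0411, FDR 0.333 by edgeR). Without the HCC1954 library labelled control the log2 fold change was -0.24, and without HCC1954 it was -0.20. In both of these fits, only the OVCAR8 control held reads of *CDKN2A*. *CCND1* was at 1.79 of control in HCC1954, 1.74 in MDA-MB-231 and 1.10 in OVCAR8 but at 0.658 in SKOV3, and the fit gave 0.29 on the log2 scale (FDR 0.567, standard error 0.21). *CCND3* and *CCNE1* had ratios of 1.71 and 1.83 in MDA-MB-231, and between 0.902 and 1.27 in the other lines. *CDKN2C* had its largest ratio in MDA-MB-231 too, at 1.47, and *CDKN1B* its lowest there, at 0.736. Counting changes of at least 1.5-fold within a line, which have no replicate check, MDA-MB-231 had 4 of 10 members (*CCND1*, *CCND3*, *CCNE1* and *CDKN1A*) beside 20.6% of all genes, HCC1954 2 (*CCND1* and *CDK6*) beside 24.3%, OVCAR8 0 beside 13.1% and SKOV3 2 (*CCND1* and *CDKN1A*) beside 21.3%.

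**Figure D4:**
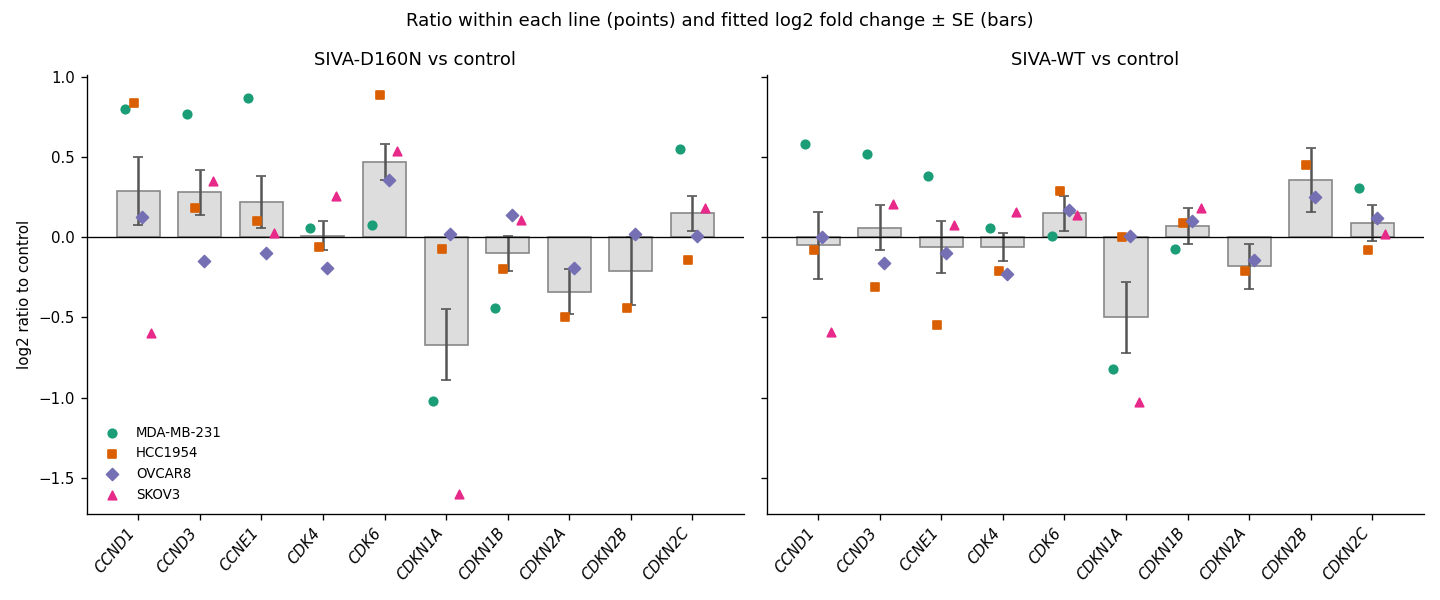
For each member on the x axis, points give the log2 ratio to the control within 1 line (a prior count of 2, 1 library each, coloured by line) and grey bars the fitted log2 fold change with its standard error, for *SIVA-D160N* on the left and SIVA-WT on the right. The *CDK6* points lie above 0 in all 4 lines on the left, the *CDKN1A* points of MDA-MB-231 and SKOV3 lie far below 0 in both panels, and *CDKN2A* and *CDKN2B* have points for HCC1954 and OVCAR8 only.

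Whether the response to *SIVA-D160N* differed between tissues was tested as an interaction, ovarian minus breast lines. No member passed an FDR under 0.05, and 1 gene of all tested did (0.00581%). At an unadjusted p under 0.05, 1 member, *CCND1*, differed, beside 5.06% of all genes. Its change was 1.07 lower on the log2 scale in ovarian lines (log2 difference -1.07, standard error 0.32, unadjusted p = 0.00807, FDR 0.964 by edgeR). Without SKOV3, the line in which *CCND1* was lower with the mutant, the difference was -0.68 (unadjusted p = 0.103), without the HCC1954 library labelled control it was -1.22 (FDR 0.535), and with no filter on low counts the FDR was 0.0327. DESeq2 and limma-voom called 0 members.

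In SIVA-WT vs control, 0 members and 0 genes (0.0%) passed the thresholds by edgeR, and DESeq2 and limma-voom called 0 members. At an unadjusted p under 0.05, only *CDKN1A* differed, beside 2.54% of all genes. Its ratio was 0.565 in MDA-MB-231, 0.487 in SKOV3, 0.997 in HCC1954 and 1.01 in OVCAR8, so the same lines were low as with *SIVA-D160N*. The log2 fold change was -0.50 (standard error 0.22, unadjusted p = 0.0453, FDR 1.00). This contrast and the one above share the control libraries, and in MDA-MB-231 and SKOV3 the high *CDKN1A* value is that of the shared control. *CDK6* was higher in all 4 lines, as were 4.57% of all genes, with ratios of 1.01 to 1.23 and a log2 fold change of 0.15 (FDR 1.00).

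Between *SIVA-D160N* and SIVA-WT, 0 members and 0 genes (0.0%) passed the thresholds by edgeR, with 0 members by DESeq2 and limma-voom. *CDK6* and *CDKN2B* had an unadjusted p under 0.05, beside 6.88% of all genes. *CDK6* was 1.51-fold over SIVA-WT in HCC1954, 1.32-fold in SKOV3, 1.14-fold in OVCAR8 and 1.05-fold in MDA-MB-231 (log2 fold change 0.32, standard error 0.11, unadjusted p = 0.0162, FDR 0.719). *CCND3*, *CDK4* and *CDK6* had a ratio above 1 in all 4 lines, beside 12.1% of all genes, but that of *CDK4* in MDA-MB-231 rounds to 1.00 and that of *CCND3* in OVCAR8 to 1.01. *CDKN2B* was at 0.54 of SIVA-WT in HCC1954 and 0.85 in OVCAR8 (log2 fold change -0.57, standard error 0.21, FDR 0.719). Without HCC1954, which left only OVCAR8 with reads of *CDKN2B*, the log2 fold change was -0.24. *CDKN1A* did not differ between the transfectants beyond the spread of the lines, at -0.17 on the log2 scale (FDR 0.902, standard error 0.22).

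The wider pathway was read from lists of genes. Of 20 further genes of the G1/S core, 19 were tested, and the thresholds were passed by 0 of them for *SIVA-D160N* against control. At an unadjusted p under 0.05, 6 were higher and 1 lower, beside 14.2% of all genes in either direction, and the median log2 fold change was 0.10 against -0.01 for all genes. *CCNE2* had the largest change of those named, 0.56 on the log2 scale (FDR 0.211, standard error 0.17). It went from 19.5 to 50.7 CPM in MDA-MB-231, 37.8 to 48.5 CPM in HCC1954, 36.6 to 48.1 CPM in OVCAR8 and 32.5 to 36.4 CPM in SKOV3. *RB1*, *E2F1* and *CDK2* had log2 fold changes of 0.13, 0.03 and 0.07. In SIVA-WT vs control the list had a median of 0.02, with 0 genes higher and 1 lower at that p.

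Of 16 E2F target and S phase genes, 0 were called for the mutant against control. All 16 had a fitted log2 fold change above 0, with a median of 0.21 against -0.01 for all genes tested. The share of all genes above 0 was not counted, and the list was not tested as a set. At an unadjusted p under 0.05, 5 were higher and 0 lower, beside 14.2% of all genes. *MKI67*, a proliferation marker, had 0.29 on the log2 scale (FDR 0.273, standard error 0.10), and its levels went from 291 to 422 CPM in MDA-MB-231, 446 to 581 CPM in HCC1954, 496 to 587 CPM in OVCAR8 and 835 to 829 CPM in SKOV3. *PCNA*, the sliding clamp of DNA polymerase, had 0.20 (FDR 0.562). In the study's own XTT assays, MDA-MB-231 cells proliferated at similar rates with empty vector, SIVA-WT and *SIVA-D160N*. In SIVA-WT vs control the median was 0.06, with 12 genes above 0 and 4 below.

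Of 25 p53 target genes besides *CDKN1A*, 0 were called for the mutant against control, 2 were higher and 5 lower at an unadjusted p under 0.05, beside 14.2% of all genes, and the median was -0.14 against -0.01 for all genes. The 2 higher genes were *TIGAR* and *POLH*, and the 5 lower ones *GDF15*, *BBC3*, *SESN2*, *TNFRSF10B* and *TP53INP1*, all but *GDF15* named after their values were seen. *GDF15*, a stress-induced cytokine, had a log2 fold change of -1.91 with an FDR of 0.256. It had 619, 106 and 23 counts in MDA-MB-231 (control, SIVA-WT and *SIVA-D160N*), where *CDKN1A* was also below its control. In SKOV3, where *CDKN1A* had its lowest ratio, *GDF15* had 11, 14 and 12 counts. *MDM2*, a direct p53 target, was between 39.2 and 65.9 CPM in all libraries and had a log2 fold change of -0.03 (FDR 0.885).

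Across the 12 libraries, the genes whose log2 CPM was most like that of a member were *ALDH1A3* for *CCND1* (Pearson r = 0.987), *HELLS* for *CCND3* (0.993), *STARD7* for *CCNE1* (0.983), *POLE4* for *CDK4* (0.986), *CUL3* for *CDK6* (0.946), *PPP1R3F* for *CDKN1A* (0.989), *SLU7* for *CDKN1B* (0.976), *EN1* for *CDKN2A* (0.996), *MT1F* for *CDKN2B* (0.999) and *ADGRA3* for *CDKN2C* (0.971). These values describe 4 lines seen 3 times each and rest mainly on the line means. After the line means were subtracted, *SLC2A3*, a glucose transporter, was most like *CDKN1A* (r = 0.99) and *NOC3L* most like *CDK6* (r = 0.988).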

How the data were processed

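RNA-seq reads from stranded, paired-end libraries were mapped by the authors to GRCh38 (STAR 2.5.3a in the submitters' processing notes), and the deposited counts of 57187 genes were not normalized. The annotation release and the counted strand are not given in the sources used here. A deposited table of CPM values was not used. Models were fitted to these counts with edgeR 4.0.16 under R 4.3.3 (glmQLFit, glmQLFTest, TMM, filterByExpr by condition) over all 12 libraries, with terms for line and condition, which tested 17211 genes. The cell line was the block, since the 3 libraries of a line share their cells. Deviations of libraries from their condition's mean correlated at 0.929 to 0.968 within a line and at -0.433 to -0.191 between lines. Log2 ratios within a line used a prior count of 2. Exon lengths were the union of exons in GENCODE v44 (GRCh37 mapping), matched by Ensembl identifier, and coordinates are those of RefSeq GRCh38.p14. The fit was tested on simulated data before use. Alternatives were DESeq2 1.42.0, limma-voom (limma 3.58.1), other size factors, no filter, thinned counts, single libraries or lines left out, and no block. Libraries held 35791455 to 45890398 counts, and in MDA-MB-231 and SKOV3, the lines with members at 0, 3 counts correspond to 0.0664 to 0.0795 CPM on the TMM scale, for counting error only. Nothing in the labels says that libraries came from separate cultures. All 10 members were named with their values. Of the listed genes, those fixed in a rule were named, and others are marked where they appear. The members and lists were chosen with earlier results of these data known. Figures were drawn with matplotlib 3.10.9.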

Additional observations from a re-analysis of the deposited data

How the results depend on the processing

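No member passed both thresholds in a comparison of conditions under any alternative run. All 10 differed among lines under each alternative run for that test. They include *CDKN2A* and *CDKN2B*, which had to differ wherever the filter on low counts was applied. In the edgeR fit of all 12 libraries, 93.9% of all genes tested also differed, so these calls say little about the members in particular. That test could not include the fit without lines and was not run on only the 8 libraries of a pair of conditions. In the comparisons of conditions, the number of genes called of all tested did move. For *SIVA-D160N* vs control, 1 gene was called by edgeR, 12 by DESeq2, 27 by limma-voom, 172 with no filter on low counts and 0 with only the 8 libraries compared, and 0 to 8 with a line or library left out. For SIVA-WT vs control, the 0 genes became 1 by DESeq2, 1 by limma-voom and 10 with no filter, and 0 to 1 with a line or library left out. For *SIVA-D160N* vs SIVA-WT, the 0 genes became 4, 1 and 59 in the same order, and 0 to 1. For the difference between tissues, the 1 gene became 12, 0 and 101, and 0 to 1, and the members called went from 0 to 1 (*CCND1*) with no filter. The causes were not tested.

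Same-numbered libraries share a cell line, which is the replicate block. Without the block, 0 genes were called for *SIVA-D160N* vs control, and *CDK4* turned from 0.01 to -0.01. The members under an unadjusted p of 0.05 were lost. For *SIVA-D160N* vs control, *CDK6* had a log2 fold change of 0.42 (unadjusted p = 0.15 by edgeR), *CDKN1A* of -0.69 (unadjusted p = 0.52) and *CDKN2A* of -0.29 (unadjusted p = 0.923). *CDKN1A* in SIVA-WT vs control had an unadjusted p = 0.611 by edgeR, and in *SIVA-D160N* vs SIVA-WT *CDK6* had an unadjusted p = 0.306 and *CDKN2B* an unadjusted p = 0.783. No call at both thresholds changed for the members.

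With a line or library left out, small log2 fold changes turned sign. For *SIVA-D160N* vs control the range was -0.06 to 0.09 for *CDK4*, -0.18 to 0.02 for *CDKN1B* and -0.48 to 0.07 for *CDKN2B*. For SIVA-WT vs control it was -0.24 to 0.22 for *CCND1*, -0.09 to 0.18 for *CCND3*, -0.22 to 0.10 for *CCNE1*, -0.13 to 0.01 for *CDK4* and -0.02 to 0.17 for *CDKN2C*. For *SIVA-D160N* vs SIVA-WT it was -0.32 to 0.01 for *CDKN1A* and -0.03 to 0.14 for *CDKN2C*. Since each line gave 1 library per condition, ratios inside a line could not be set against replicates.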
